A study of Mus musculus with 8 samples.

Results

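NF-kB is a family of dimeric transcription factors that turn on inflammatory genes, and its activity is held in check by IkB proteins. The 10 genes described here are the 5 subunit genes Nfkb1, Nfkb2, Rel, Rela and Relb, the classical inhibitor genes Nfkbia, Nfkbib and Nfkbie, and the atypical IkB genes Nfkbiz and Bcl3. They were taken by gene symbol from the authors' deposited results table, in which each of the 10 has 1 transcript cluster, the probe group that measures a gene on this array. The table holds 41345 clusters, of which 27037 carry a symbol entry, for 24647 distinct symbols.

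Endometrium, the inner lining of the uterus, was scraped from CBAF1 females (CBA x C57Bl/6 F1) 8 h after they mated with Balb/c males. One group mated with Intact males, whose seminal fluid reached the tract. The other group mated with SVX/VAS males, for which the labels state no seminal fluid exposure and spell out neither abbreviation. All females were staged by vaginal cytology and paired on the evening after proestrus, and the sources used here do not state their age. Both groups had mated, so the comparison is between matings and not with unmated animals. Mating was checked by video in both groups and by a copulatory plug with Intact males alone. RNA of 16 females per group was combined into 4 independent pools of 4, and each pool was measured on its own Affymetrix Mouse Gene 2.0 ST array, so errors below reflect differences among pools of animals. Over all clusters, Intact replicates 3 and 4 had a slightly higher median correlation with the SVX/VAS arrays (0.9743 and 0.9798) than with their own group (0.9736 and 0.9771). Values are log2 signals, on which a difference of 1 is a doubling, and a level of 1 gene is not comparable with that of another because their probes differ.

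In resting cells most NF-kB dimers are retained in the cytoplasm by a classical IkB protein. Receptors such as TLR4 and the receptors of TNF and interleukin-1 activate the IKK kinase complex, which marks IkB for destruction and frees the dimer to enter the nucleus. Several genes of the pathway, Nfkbia among them, are themselves NF-kB targets, which forms a negative feedback loop. In the uterus the pathway is known for its part in the inflammatory response to mating and to bacterial products. Control of NF-kB acts mostly on protein location and stability, which an array of transcripts does not measure.

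All 10 members had a higher mean after Intact mating, with log2 differences from 0.01 (Rela) to 0.77 (Bcl3) and a median of 0.42, where the median over all symbols was 0.0054 and 50.1% of all clusters had a difference above 0. The 5 IkB genes had a median of 0.64 and the 5 subunit genes one of 0.31. None of the 10 passed a Benjamini-Hochberg adjusted p of 0.05 over all clusters by limma's moderated test, which called 34 clusters in all (0.0822%), 21 of them higher (0.0508%). At an unadjusted p under 0.05, 8 of the 10 were higher and 0 lower by limma, where 5.13% of all clusters were called higher and 6.78% lower. The deposited p-values and the methods' t-test also called 0 members after adjustment, but both gave the members the same p-values and are not 2 separate checks. A trended and robust limma fit called 1 member higher (Nfkbia), against 68 higher (0.164%) and 105 lower of all clusters. A fit without clusters below the median signal called 2 (Nfkbia and Bcl3), against 144 higher (0.697%) and 214 lower of 20673 clusters, so that most calls over all clusters were lower in these last 2 fits. The submitters' own criteria (a fold of 1.5 or more, p below 0.05 before adjustment) were applied to limma's p unless another test is named. By them Nfkbia, Nfkbie and Bcl3 were higher and 0 members lower, against 0.9% of all clusters higher and 1.57% lower. With the deposited p-values the members higher by these criteria also numbered 3. Without Intact replicate 3 Rel and Nfkb2 also met the criteria, making 5, while Nfkbia missed them without Intact replicate 4 and Nfkbie without SVX/VAS replicate 4, leaving 2 each time. Every Intact array lay above every SVX/VAS array for 6 of the 10 members, a pattern that 3.37% of all clusters showed. These 6 were Rel, Relb, Nfkbia, Nfkbib, Nfkbie and Bcl3. The members were chosen with earlier results of these arrays known, so their counts beside the shares over all clusters are not independent evidence of a direction.

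**Figure D1:**
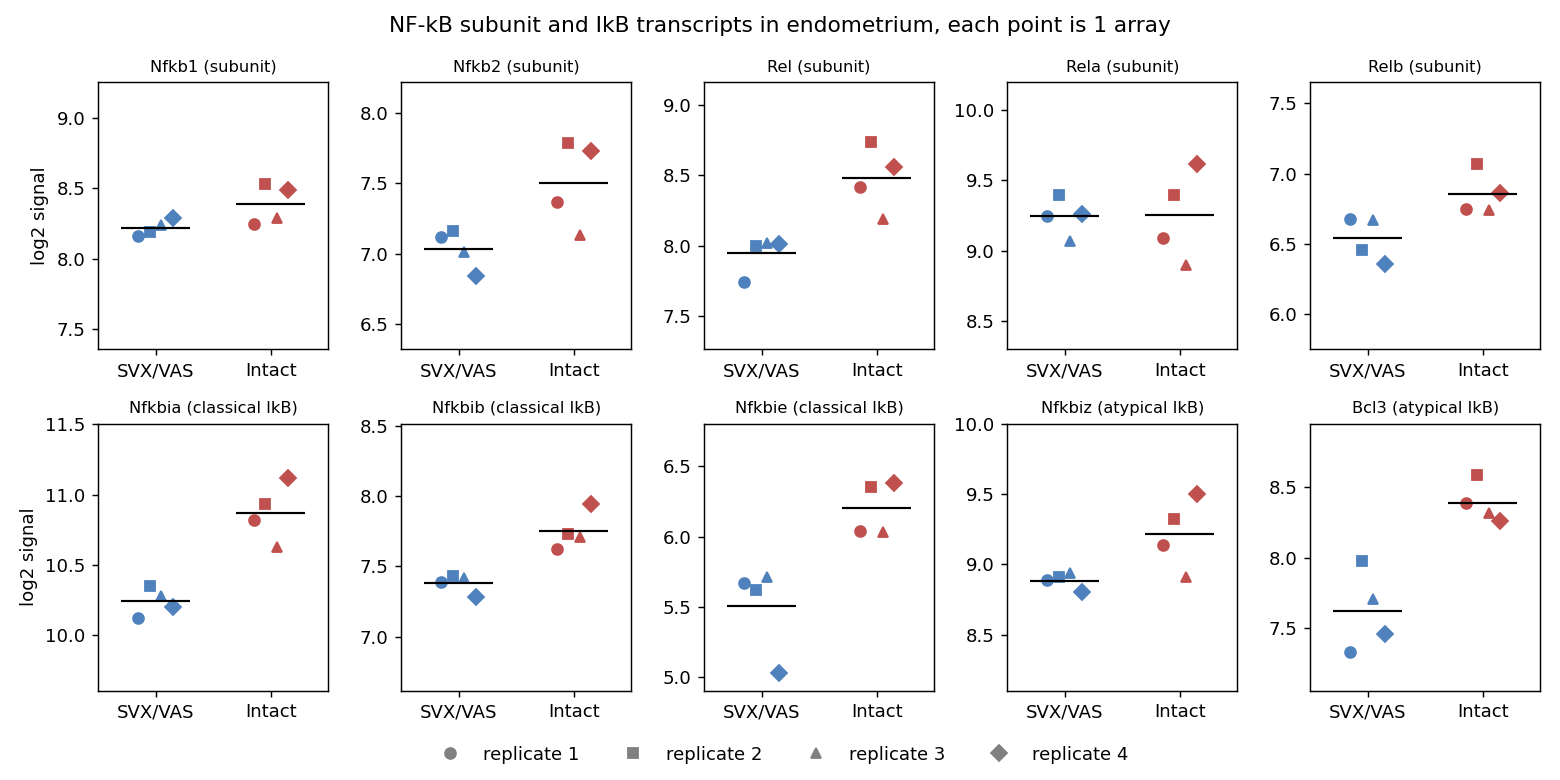
Log2 signal of the 10 members in each of the 4 SVX/VAS (blue) and 4 Intact (red) arrays. Marker shapes give the replicate number, horizontal lines are group means, and every vertical axis spans the same number of log2 units. The groups are apart for Rel, Relb, Nfkbia, Nfkbib, Nfkbie and Bcl3, and the Rela means differ by 0.01.

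The promoters of 7 of the 10 members were found in RefSeq's table (GRCm38.p6), and those of Nfkb1, Relb and Nfkbiz were not used here. The 250 bases before each start site were searched on both strands for the NF-kB consensus site, a degenerate motif of 10 bases. Consensus matches were found for 4 of the 7 genes, Nfkb2, Rel, Nfkbia and Nfkbie, where 8.23% of 27025 symbols had a match in at least 1 of their windows. By window the count was 6 of 9, of which Nfkb2 supplied 3, where 7.25% of 32851 windows held a match. Both of these background shares leave out the promoters of 1 chromosome, which carries no member. A match describes these letters and does not show that a factor binds there. Sequences are shown for the 3 genes with a match whose window lies wholly before the annotated gene, and for Rela and Bcl3, the members with the smallest and the largest difference, which had no match. All read from 5′ to 3′ along the gene, and capitals mark consensus matches. Nfkbia is at chr12:55492648-55492897 on the minus strand, Rel at chr11:23770970-23771219 on the minus strand and Nfkbie at chr17:45555450-45555699 on the plus strand. For Rela (chr19:5637291-5637441, plus strand) and Bcl3 (chr7:19822825-19823005, minus strand) only the 151 and 181 bases outside the annotated gene are printed.
Nfkbia: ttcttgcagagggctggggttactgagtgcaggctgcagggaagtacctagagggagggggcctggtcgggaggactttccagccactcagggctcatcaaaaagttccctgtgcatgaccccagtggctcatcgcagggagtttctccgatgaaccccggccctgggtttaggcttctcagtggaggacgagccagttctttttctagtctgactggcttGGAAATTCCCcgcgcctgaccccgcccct
Rel: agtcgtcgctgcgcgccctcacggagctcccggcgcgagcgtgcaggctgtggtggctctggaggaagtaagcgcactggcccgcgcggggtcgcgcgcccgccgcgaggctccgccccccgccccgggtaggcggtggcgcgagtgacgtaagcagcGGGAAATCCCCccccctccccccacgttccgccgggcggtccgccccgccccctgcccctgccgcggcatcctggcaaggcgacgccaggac
Nfkbie: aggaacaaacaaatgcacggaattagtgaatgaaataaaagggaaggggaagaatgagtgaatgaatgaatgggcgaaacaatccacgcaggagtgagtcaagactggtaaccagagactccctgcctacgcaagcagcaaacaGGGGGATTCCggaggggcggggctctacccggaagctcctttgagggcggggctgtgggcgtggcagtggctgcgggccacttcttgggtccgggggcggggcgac
Rela: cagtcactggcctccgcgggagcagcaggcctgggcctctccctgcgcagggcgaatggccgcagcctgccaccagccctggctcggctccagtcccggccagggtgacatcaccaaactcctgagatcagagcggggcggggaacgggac
Bcl3: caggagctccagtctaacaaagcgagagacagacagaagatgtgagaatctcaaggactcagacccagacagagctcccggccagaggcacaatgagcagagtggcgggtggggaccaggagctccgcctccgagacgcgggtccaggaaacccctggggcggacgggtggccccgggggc

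In the Nfkbia window the match lies 29 to 20 bases before the start site and reads GGGAATTTCC on the opposite strand. Rel holds 2 overlapping matches, the first being GGGAAATCCC at 92 to 83 bases before the start, which fits the consensus on both strands. The Nfkbie match, GGGGGATTCC, lies 106 to 97 bases before its start. Nfkb2 has 3 annotated starts, all inside the span of the gene, so its windows are not printed in full. Its matches include GGGGCTTTCC at 11 to 2 bases before the first of these starts and GGGACTTTCC at 225 to 216 bases before the last.

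Among the subunit genes, Rel had the largest difference. Rel encodes c-Rel, a transactivating subunit best known from lymphoid and myeloid cells. Its log2 signals were 8.42, 8.74, 8.19 and 8.56 in Intact replicates 1 to 4 and 7.74, 8.00, 8.02 and 8.01 in the SVX/VAS replicates. All 4 Intact arrays exceeded all 4 SVX/VAS arrays, and SVX/VAS replicate 1 lay below its group. Rel was 1.45-fold higher after Intact mating (log2 0.53, SE 0.13, 95% interval 0.23 to 0.84, limma adjusted p = 0.17).

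Nfkb2 encodes the precursor that the non-canonical pathway processes into an active subunit. It measured 7.37, 7.79, 7.13 and 7.73 in the Intact arrays and 7.12, 7.16, 7.01 and 6.84 in the SVX/VAS arrays. Intact replicate 3 fell within the SVX/VAS range, so the groups overlapped. The difference was 1.39-fold (log2 0.47, SE 0.16, limma adjusted p = 0.28). Relb, the usual partner of the processed Nfkb2 product, gave 6.75, 7.07, 6.74 and 6.86 after Intact mating and 6.68, 6.46, 6.67 and 6.36 after SVX/VAS mating. The lowest Intact array stood 0.06 above the highest SVX/VAS array, a narrow separation. Relb was 1.24-fold higher (log2 0.31, SE 0.12, limma adjusted p = 0.34).

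Nfkb1 and Rela encode the subunits of the most common dimer of the canonical pathway. Nfkb1 read 8.25, 8.53, 8.29 and 8.49 in the Intact replicates, against 8.16, 8.19, 8.24 and 8.29 in the SVX/VAS replicates. Its groups overlapped at their edge, and the difference of 0.17 (SE 0.098) had an unadjusted p of 0.11 by limma and an interval from -0.05 to 0.39. Rela signals were 9.09, 9.40, 8.90 and 9.62 in Intact arrays and 9.25, 9.40, 9.07 and 9.26 in SVX/VAS arrays. The Intact values straddled the SVX/VAS values on both sides. For Rela the log2 difference was 0.01 (SE 0.16) with a 95% interval from -0.36 to 0.37. On the fold scale this interval ran from 0.78 to 1.30, so a fall or a rise of that size lies inside it.

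For each of the 3 classical IkB genes every Intact array lay above every SVX/VAS array. Nfkbia encodes IkB-alpha, the inhibitor that is degraded and resynthesised fastest. In the Intact arrays it measured 10.82, 10.93, 10.63 and 11.12, and in the SVX/VAS arrays 10.12, 10.35, 10.28 and 10.20. A gap of 0.28 parted the groups. Nfkbia was 1.56-fold higher (log2 0.64, SE 0.12, 95% interval 0.37 to 0.91), with the smallest p of the 10 (unadjusted 0.00046, limma adjusted p = 0.096). Among all symbols, 0.625% had a larger log2 difference than Nfkbia.

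Nfkbie, which encodes IkB-epsilon, showed 6.04, 6.35, 6.03 and 6.38 after Intact mating. The SVX/VAS arrays gave 5.67, 5.62, 5.71 and 5.03, so replicate 4 was far below its group while the other 3 lay close together. The difference was 1.62-fold (log2 0.69, SE 0.17, limma adjusted p = 0.16), and without SVX/VAS replicate 4 it was 0.54. Nfkbie was the dimmest member, with 60.3% of clusters below its mean signal, and in 1 of 8 arrays it did not exceed the array's median. Nfkbib, which encodes IkB-beta, read 7.62, 7.73, 7.71 and 7.94 in the Intact arrays and 7.39, 7.43, 7.42 and 7.28 in the SVX/VAS arrays. Its groups were separated by 0.19 with little spread on either side. Nfkbib was 1.29-fold higher (log2 0.37, SE 0.098, limma adjusted p = 0.18).

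The atypical IkB proteins act in the nucleus, where they bind NF-kB subunits on DNA and can raise as well as lower transcription. Bcl3, a partner of the homodimers formed by the Nfkb1 and Nfkb2 products, gave 8.39, 8.59, 8.32 and 8.26 in Intact replicates and 7.33, 7.98, 7.71 and 7.46 in SVX/VAS replicates. The 4 Intact values were close together and the SVX/VAS values were spread over 0.65. Its difference was the largest of the 10, 1.71-fold (log2 0.77, SE 0.15, 95% interval 0.43 to 1.11, limma adjusted p = 0.11), and 0.365% of symbols had a larger one. Nfkbiz, whose product IkB-zeta is needed for a subset of secondary inflammatory genes such as Il6 and Lcn2, measured 9.14, 9.32, 8.91 and 9.50 after Intact mating and 8.89, 8.91, 8.94 and 8.80 after SVX/VAS mating. The SVX/VAS arrays were almost level, whereas the Intact arrays spanned from inside their range to well above it. Nfkbiz was 1.26-fold higher (log2 0.33, SE 0.13, limma adjusted p = 0.35).

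**Figure D2:**
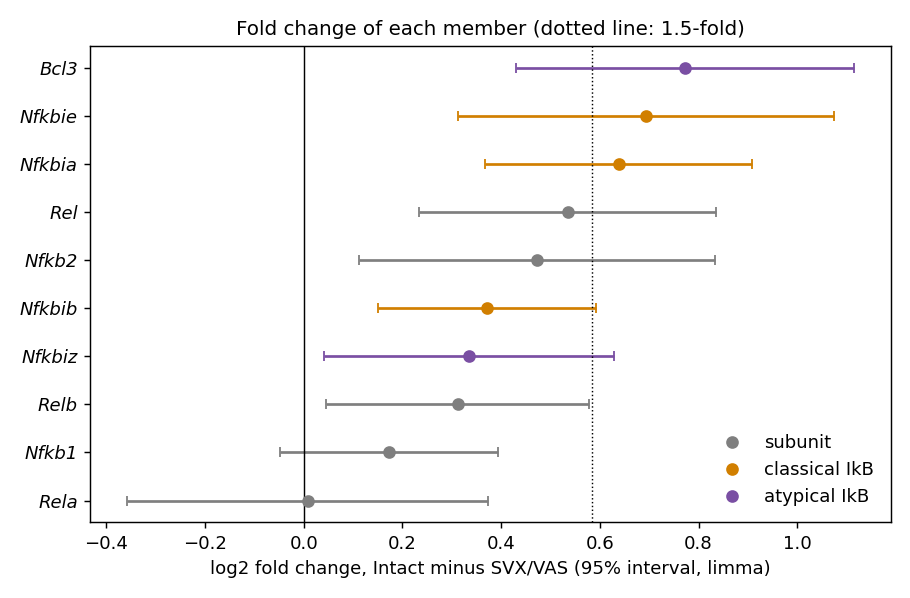
Log2 fold change (Intact minus SVX/VAS) of each member with its 95% interval from limma, coloured by role, with a dotted line at 1.5-fold. The intervals of Rela and Nfkb1 include 0, and Bcl3, Nfkbie and Nfkbia are the 3 members beyond 1.5-fold.

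Ordered by size the differences ran from Bcl3 through Nfkbie, Nfkbia, Rel, Nfkb2, Nfkbib, Nfkbiz, Relb and Nfkb1 to Rela. For all 9 neighbouring pairs in that order the 95% interval of the difference between their log2 fold changes included 0, so adjacent places are not distinguished. Over all 45 pairs, 17 intervals did not include 0, with no adjustment for the number of pairs. Rela was in 7 of them. The within-array difference of Rela minus Nfkbia ranged from -1.74 to -1.49 in Intact arrays and from -1.21 to -0.87 in SVX/VAS arrays, without overlap (difference -0.63, interval -0.87 to -0.39). Nfkb2 minus Rela ran from -1.89 to -1.61 in Intact arrays and from -2.41 to -2.06 in SVX/VAS arrays (difference 0.46, interval 0.23 to 0.70). Relative to Rela, the transcripts of Nfkbia and Nfkb2 were thus higher in each Intact array than in any SVX/VAS array.

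The members deviated together within the Intact group. Intact replicates 2 and 4 were each above the group mean for 9 of 10 members, and replicates 1 and 3 for 0 of 10. The mean deviation of the members was 0.15 in replicate 2 and 0.15 in replicate 4, against -0.10 in replicate 1 and -0.21 in replicate 3. Rela, whose group means differed by 0.01, followed the same division. The median deviation over all symbols stayed between -0.0081 and 0.011 in these arrays. Array medians were alike (5.35 to 5.41), so this median lies near 0 in any case. It cannot show that the division is particular to the members. Of the lists described below, NF-kB targets divided likewise (mean signals 7.44, 7.84, 7.40 and 7.73 in Intact replicates 1 to 4). Other NF-kB inhibitors did too (7.26, 7.46, 7.19 and 7.45), and non-canonical ligands and receptors did not (6.09, 6.07, 5.93 and 5.95). In the SVX/VAS group the members were less uniform, with 6, 8, 8 and 3 of 10 above the group mean in replicates 1 to 4. Spread was larger among Intact than among SVX/VAS arrays for 7 of 10 members, and for 60.7% of all symbols.

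**Figure D3:**
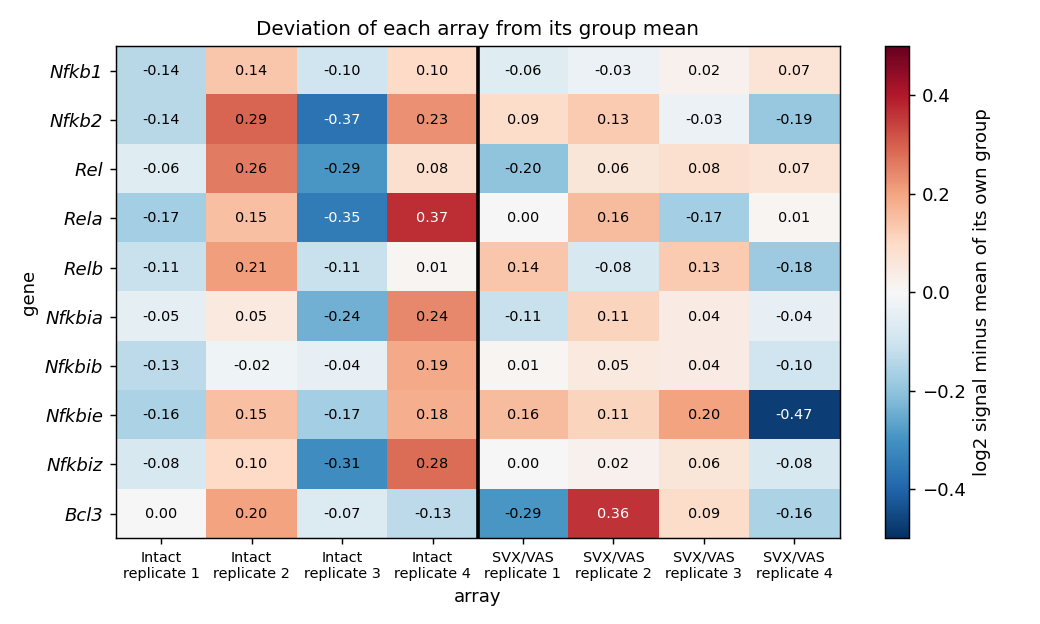
Log2 signal of each member (rows) in each array (columns) minus the mean of its own group, printed in each cell. Intact replicates 1 and 3 are at or below 0 for every member, and Intact replicates 2 and 4 are above 0 for 9 members each.

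The cell composition of the scrapings was examined with marker genes, since in whole tissue fewer cells of a type and less RNA per cell cannot be told apart. Of 12 epithelial markers 11 lay above the 75th percentile of clusters by signal, as did 8 of 12 stromal markers, and 6 of 10 smooth muscle markers did too, although myometrium was discarded per the labels. The 15 neutrophil markers had mean signals of 5.49, 5.63, 5.39 and 5.52 in Intact replicates 1 to 4 and 5.26 to 5.35 in SVX/VAS arrays. Their median difference was 0.13, with 13 positive and 2 negative. Of the 15 markers 1 lay above that percentile, Ltf (12.95 after Intact and 12.82 after SVX/VAS mating), named after its value was seen. At an unadjusted p under 0.05 by limma, 4 of them were higher and 1 lower, against 5.13% and 6.78% of all clusters. The higher ones were Stfa2l1 (1.32-fold), Il1r2 (1.33-fold), Cxcr2 (1.455-fold) and S100a8 (1.62-fold). The lower one was Ly6g (1.29-fold), the last 3 of these 5 being named after their values were seen. Stfa2l1 (means 3.59 after Intact and 3.20 after SVX/VAS mating) and S100a8 (3.40 and 2.70) lay below the array medians of 5.35 to 5.41. Mean signal of the epithelial list was 9.58, 9.59, 9.41 and 9.82 in Intact replicates 1 to 4 and 9.49 to 9.72 in SVX/VAS arrays, and the list's median difference was 0.04 (Ehf higher and Krt18 lower at an unadjusted p under 0.05). All 12 stromal markers were lower on average after Intact mating (median -0.28), with 1 (Esr1, log2 -0.38) past an unadjusted p of 0.05. Macrophage markers had a median of -0.07, endothelial -0.17, smooth muscle 0.10, T and NK cell 0.08, B cell 0.12 and red cell 0.10, with 0 members of these 6 lists past an unadjusted p of 0.05. Smooth muscle markers had mean signals of 6.45, 7.37, 6.98 and 7.38 in Intact replicates 1 to 4 and 6.64 to 7.15 in SVX/VAS arrays. They were highest in Intact replicates 2 and 4, the arrays in which the members were high. The neutrophil list was also highest in these arrays. The epithelial list was highest there among Intact arrays alone, and narrowly for replicate 2 (9.59 against 9.58 in replicate 1). SVX/VAS replicates 1 and 2 exceeded that value (9.61 and 9.72). The stromal, endothelial, macrophage, T and NK cell, B cell and red cell lists were not highest in Intact replicates 2 and 4. The part of cell composition in the member differences was not tested.

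Other genes of the pathway were followed through 4 lists. For reference, at an unadjusted p under 0.05 by limma, 5.13% of all clusters were higher and 6.78% lower. By the submitters' criteria 0.9% of all clusters were higher. Of 22 genes of the IKK complex and its upstream signalling, 0 passed the adjusted test by limma, 1 was higher and 0 lower at an unadjusted p under 0.05, and the median log2 difference was -0.05. The 1 was Ikbke, an IKK-related kinase (1.46-fold, log2 0.55, SE 0.17, limma adjusted p = 0.25). Traf3, an adaptor that restrains the non-canonical pathway, was 1.24-fold higher and Chuk, the kinase IKK-alpha, 1.15-fold higher, with unadjusted p-values of 0.052 and 0.067 by limma. The list's mean signals in Intact replicates 1 to 4 were 7.30, 7.42, 7.24 and 7.48, so that replicates 2 and 4 were the higher here as well. Among 10 ligands and receptors of the non-canonical pathway, 0 were past an unadjusted p of 0.05 by limma, and their median was 0.11.

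Further inhibitors of NF-kB included Tnfaip3, whose difference exceeded that of every IkB member. At an unadjusted p under 0.05 by limma, 7 of 16 were higher and 3 lower, with 0 past the adjusted test and a median of 0.09. The 3 lower ones, named after their values were seen, were Tax1bp1, Itch and Tnip2, at log2 -0.32, -0.22 and -0.22. Tnfaip3, which encodes the ubiquitin-editing enzyme A20, was 2.87-fold higher (log2 1.52, SE 0.27, limma adjusted p = 0.087). Zc3h12a, an RNase that destroys cytokine mRNAs, was 1.78-fold higher (limma adjusted p = 0.075) and Tnip3, a partner of A20, was 2.27-fold higher (limma adjusted p = 0.14). Nfkbid, a further nuclear IkB gene, named after its value was seen, was 1.21-fold higher (log2 0.28, SE 0.10, limma adjusted p = 0.32).

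NF-kB target genes outside the family held the largest single differences, although the list's median was not above that of the members. Of 37, 22 were higher and 0 lower at an unadjusted p under 0.05 by limma, 17 met the submitters' criteria as higher, and 3 rose past the adjusted test, with a median of 0.39 over the list. The 3 were Csf3, the gene of the granulocyte growth factor G-CSF (limma adjusted p = 0.0095), Cxcl5, a neutrophil chemokine (adjusted p = 0.033), and Il1b, which encodes interleukin-1 beta (adjusted p = 0.042). Cxcl5 went from a mean of 7.15 to 9.37, Il1b from 4.96 to 6.82 and Csf3 from 6.41 to 7.54. Leaving out 1 array, the Csf3 call was lost without Intact replicate 1 or SVX/VAS replicate 1, 3 or 4 (adjusted p of 0.052 to 0.061), and those of Cxcl5 and Il1b were lost without any array but Intact replicate 3 (0.064 to 0.13 and 0.070 to 0.13). With the deposited p-values Cxcl5 and Il1b had adjusted p-values of 0.092 and 0.11. The largest member difference, 0.77 for Bcl3, was smaller than each of these 3, whose log2 differences were 2.22, 1.86 and 1.13. These lists were drawn up with earlier results of the same arrays known, so their counts are not independent evidence of a direction.

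**Figure D4:**
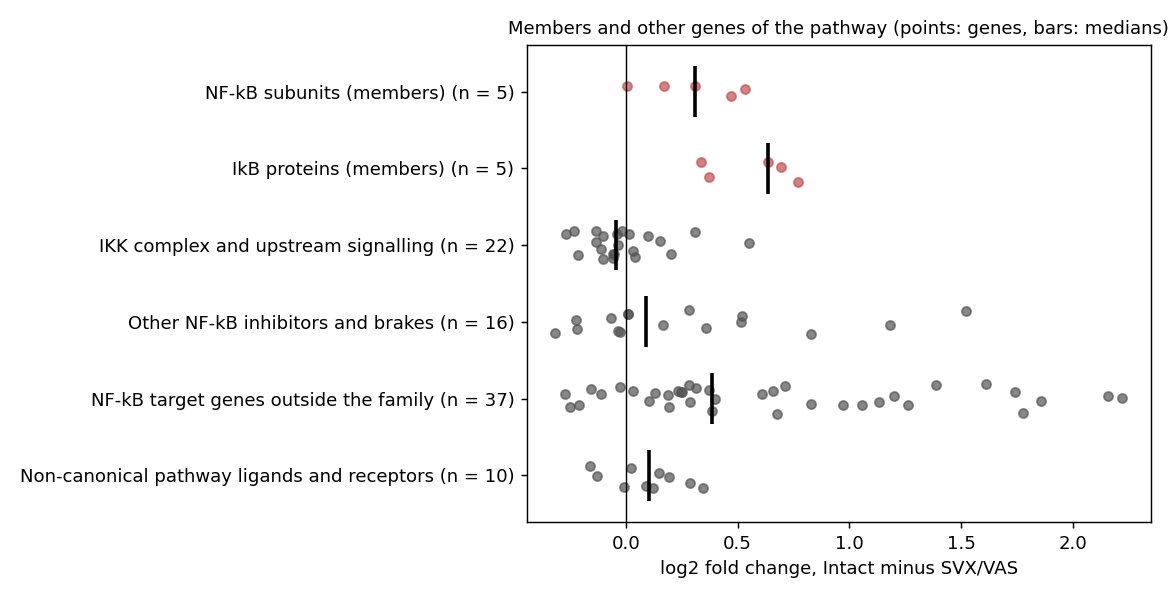
Log2 fold change (Intact minus SVX/VAS) of each measured gene, for the 5 subunit genes, the 5 IkB genes and the 4 pathway lists, with medians as vertical bars. The IKK list is centred near 0 (median -0.05) and the target list reaches 2.22.

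Among 24637 symbols that are not members, the 5 whose 8 array values, centred on their own mean, lay nearest to those of Nfkbia were Birc3, Herpud1, Pla2g2e, Ripk2 and Bcl2l15. Their root mean square distances were 0.058 to 0.078 log2 units over the 8 arrays, and their log2 differences were 0.61 to 0.71. Birc3 and Ripk2 are on the target list. Of the members Rel was nearest to Nfkbia (distance 0.12, with 0.154% of symbols nearer) and Rela farthest (0.34, with 27.0% nearer). This likeness includes the group difference that all of them share, and is a description over 8 arrays.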

How the data were processed

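Endometrial RNA (300 ng per array) was measured on 4 arrays per group, and the sample labels gave each array its group and replicate number. RMA background correction, GC correction and mean probe summarization were done by the authors in Partek Genomics Suite 6.6, per the series text, and the submitters' processing notes also name Affymetrix Expression Console. Neither the genome build nor the step between arrays is stated in those sources. The log2 values per array that the authors deposited were used for levels and tests. They gave the deposited ratio of Intact over SVX/VAS to within 5.95e-05 on the log2 scale for all 41345 clusters, which fixed the log base and direction. The deposited p-value column is unadjusted, per the file headers, and the signed fold, F and sums of squares deposited by the authors (score columns, per the file headers) served as checks.

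Differences were tested with limma 3.58.1 (R 4.3.3; lmFit and eBayes, two-sided) and adjusted by Benjamini-Hochberg over all clusters. No probe detection calls were used, and the number of arrays limits precision. Array medians were 5.35 to 5.41, and the median correlation of an array with its own group was 0.974 to 0.984. No batch or scan date is in the labels. Pair intervals used 6 degrees of freedom. The members and lists were chosen with earlier results of these data known. Named genes were the members, up to 3 genes by p of each pathway list, up to 2 of each marker list and the 5 nearest to Nfkbia. Alternatives were other tests, filters and normalizations, the replicate number as a block, and leaving out each array. Of the list genes, Otulin, Tnfsf12, Adgre1, Trac, Hba-a1 and Hbb-bs were not matched by symbol. Deviations of same-numbered arrays were only weakly correlated (0.128, 0.0488, 0.0499 and -0.0518), and the numbers were not treated as pairs.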

Additional observations from a re-analysis of the deposited data

Results flagged for a closer look

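Among the 20 sets of 4 arrays (10 members in 2 groups), 2 held an array far from the other 3 by Dixon's criterion, where chance gives about 1 in 20. Rel was lowest in SVX/VAS replicate 1, at a log2 signal of 7.74 against 8.00 to 8.02 in the other 3, a gap of 0.927 of the range. Without that array the Rel difference was 0.47. Nfkbie was lowest in SVX/VAS replicate 4, at 5.03 against 5.62 to 5.71, a gap of 0.869 of the range, and its difference without that array was 0.54.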

How the results depend on the processing

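Of 16 alternatives, 10 could change an estimate, and in these 10, 9 of the 10 members kept a positive difference. Rela alone changed sign, to -0.04 without Intact replicate 2, -0.12 without Intact replicate 4 and -0.05 without SVX/VAS replicate 3. Members past the adjusted threshold numbered 0 in all alternatives but 2: 1 with trended and robust eBayes (Nfkbia, adjusted p = 0.044) and 2 without clusters below the median signal (Nfkbia, 0.034, and Bcl3, 0.040), where fewer clusters were tested. Leaving out 1 array gave 0 each time. Members higher by the submitters' criteria numbered 3, and 2 to 5 when 1 array was left out. For Rela these fits ran from -0.12 to 0.13. The count of 34 clusters past the adjusted threshold was the least stable. It was 10 with the deposited p-values and with the methods' t-test, 54 after quantile normalization and 74 when adjusted over clusters with a symbol entry. With trended and robust eBayes it was 173 (68 higher and 105 lower), and without clusters below the median signal 358 (144 higher and 214 lower). When 1 array was left out it was 2 to 50. The causes of these differences were not tested. With the replicate number as a block 0 clusters passed, and the members higher by the criteria stayed at 3. Intact replicate 1 correlated best with its same-numbered SVX/VAS array (0.128). Intact replicates 2, 3 and 4 correlated best with SVX/VAS replicates 3, 4 and 2 (0.0789, 0.0768 and 0.184). Correlations this weak do not settle whether the numbers pair the arrays. Each member had 1 cluster, so averaging clusters gave no further value. Detection calls were not used, so how far the dimmest member, Nfkbie, lies above background is not known.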
